A study of Drosophila melanogaster with 8 samples.

Results

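JAK-STAT signalling genes were examined in the chromatin of Drosophila melanogaster embryos: 7 genes, out of 13945 protein-coding genes on the main chromosomes. They were the ligand genes upd1, upd2 and upd3, the receptor gene dome, the kinase gene hop, the transcription factor gene Stat92E and the feedback inhibitor gene Socs36E, chosen by name as the core of the pathway. Every ATAC-seq peak that touched one of these genes, or the 5000 bp on either side of it, was taken. ATAC-seq cuts DNA with a transposase where it is accessible, so that a peak marks open chromatin and does not measure transcription.

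The study sorted primordial germ cells (PGCs, the precursors of eggs and sperm) and somatic cells by flow cytometry from late embryos, laid overnight at 25°C by flies of the w; vas::EGFP strain. EGFP follows the germline gene vas, so PGCs were the GFP-positive cells, and the GFP-negative remainder of the whole embryo, a mixture of all its tissues, was the somatic sample. Each cell type had 2 ATAC-seq samples, which the authors averaged before calling peaks, so there was 1 peak list per cell type, and neither the variation between replicates nor the depth of a sample can be read from it. No test between PGCs and somatic cells was therefore possible, and all differences are given as values of these lists. Another 4 small RNA samples from ovaries, with and without knockdown of piwi, were not analysed here.

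On the 6 main chromosomes and chromosome arms (2L, 2R, 3L, 3R, X and 4), the PGC list held 19504 peaks and the somatic list 17411 peaks. The height of a peak is the coverage at its summit in RPKM (coverage normalized to region length and to the mapped reads of the library), and the lowest height was 50 RPKM in both lists. Median heights were 62.1 RPKM in the PGC list and 56.9 RPKM in the somatic list. On the X chromosome, peaks were fewer per length, with 1.08 per 10 kb in the PGC list and 0.686 per 10 kb in the somatic list, compared to 1.46 and 1.30 per 10 kb over all of them. This matters here because 5 of the 7 genes are X-linked. Peaks with the summit within 500 bp of a start site (promoter peaks) were found in the PGC list at 11 of 11 germline marker genes, against 3 of 11 in the somatic list. Over all protein-coding genes, 48.2% had a promoter peak in the PGC list and 28.2% in the somatic list. The somatic count of 3 of 11 thus lay near the background. Somatic tissue markers such as wg and Mef2 had promoter peaks at 12 of 12 genes in the PGC list and 11 of 12 in the somatic list, and the somatic gonad markers tj and eya at 2 and 1 of 2 genes. The part that somatic cells in the PGC sort could have in the values below was not tested.

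In flies, the secreted Unpaired proteins encoded by upd1, upd2 and upd3 bind the receptor Domeless (dome), which activates the Janus kinase Hopscotch (hop). Hopscotch phosphorylates Stat92E, the single fly STAT, which then enters the nucleus and binds palindromic sites in DNA. Socs36E is induced by the pathway and restrains it. The pathway acts in segmentation and in the development of hindgut, trachea and posterior spiracles, and in male embryonic gonads a ligand from somatic cells activates Stat92E in germ cells.

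Stretches of DNA under main peaks of 6 of the genes, or at their borders, are shown first. For each peak a stretch of 200 bases without exons was taken, within the peak of either list or 50 bp of its border. The stretch chosen held the most STAT-type matches and lay closest to the summit. Sequences are from the RefSeq release 6 genome (dm6) and are written 5′ to 3′ along the strand of the gene. Capitals mark the STAT site TTCNNNGAA, the same half-sites with 1 more base between them (wider spacing), the GAGA factor motif GAGAG and the Zelda motif CAGGTA, all searched on both strands. GAGAG reads CTCTC on the other strand, and overlapping matches of GAGAG merge into longer runs of capitals. The upd1 upstream stretch (chrX:18312626-18312825, minus strand) lay in the highest PGC peak of all 7 genes. The upd2 promoter stretch (chrX:18243539-18243738, minus strand) and the upd3 intron stretch (chrX:18282489-18282688, plus strand) lay in the highest PGC peak of their genes. The dome promoter stretch (chrX:19683519-19683718, minus strand) and the hop promoter stretch (chrX:11368099-11368298, minus strand) end at the base before the start site. The Socs36E stretch (chr2L:18151693-18151892, minus strand) is intronic, 525 to 724 bp inside the start site.
upd1 upstream peak: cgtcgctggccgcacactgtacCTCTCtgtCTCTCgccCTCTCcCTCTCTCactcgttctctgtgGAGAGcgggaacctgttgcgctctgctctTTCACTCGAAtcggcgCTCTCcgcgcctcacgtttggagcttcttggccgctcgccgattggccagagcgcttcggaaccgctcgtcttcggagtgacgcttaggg
upd2 promoter peak: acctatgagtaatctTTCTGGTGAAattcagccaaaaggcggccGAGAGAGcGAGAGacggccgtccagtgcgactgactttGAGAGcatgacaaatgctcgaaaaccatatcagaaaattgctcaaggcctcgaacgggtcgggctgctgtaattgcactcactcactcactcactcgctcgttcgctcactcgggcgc
upd3 intron peak: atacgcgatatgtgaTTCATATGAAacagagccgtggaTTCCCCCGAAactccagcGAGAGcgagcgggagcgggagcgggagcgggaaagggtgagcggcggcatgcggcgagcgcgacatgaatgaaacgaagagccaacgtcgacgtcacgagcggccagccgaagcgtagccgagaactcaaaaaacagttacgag
dome promoter peak: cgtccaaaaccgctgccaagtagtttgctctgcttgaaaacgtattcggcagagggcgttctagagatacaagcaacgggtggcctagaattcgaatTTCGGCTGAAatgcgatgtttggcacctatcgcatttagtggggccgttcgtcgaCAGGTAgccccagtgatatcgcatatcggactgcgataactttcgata
hop promoter peak: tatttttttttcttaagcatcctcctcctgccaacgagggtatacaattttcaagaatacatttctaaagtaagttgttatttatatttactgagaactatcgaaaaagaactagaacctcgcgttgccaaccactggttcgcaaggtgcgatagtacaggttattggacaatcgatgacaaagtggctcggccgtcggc
Socs36E intron peak: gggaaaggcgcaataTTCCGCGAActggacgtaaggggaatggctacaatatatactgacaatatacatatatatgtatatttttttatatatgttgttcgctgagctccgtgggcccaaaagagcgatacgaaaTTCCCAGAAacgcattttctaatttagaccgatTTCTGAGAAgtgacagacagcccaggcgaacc

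The upd1 stretch held 7 GAGA matches and a STAT-type match of wider spacing, and the upd2 and upd3 stretches also combined GAGA matches with the wider spacing. No STAT site of the usual spacing occurred in any peak of the ligand genes. The Socs36E stretch held 3 STAT sites. The outermost lay beyond the borders of both peaks, the middle one was whole in the somatic peak alone and the innermost was in both. Most of this stretch lay outside the PGC peak, which ends at chr2L:18151750, whereas the somatic peak ends at chr2L:18151850. The hop stretch held none of these motifs. A further 4 STAT sites lay in 5′ UTRs under promoter peaks, and are shown with 5 bases on each side, capitals marking the site. Those of dome were at chrX:19683215-19683233 and chrX:19683241-19683259, that of hop was at chrX:11368049-11368067 and that of Socs36E at chr2L:18152342-18152360, all on the minus strand.
dome 5′ UTR site, inner: acggtTTCCGAGAActggc
dome 5′ UTR site, outer: gccacTTCCAGGAAcgcag
hop 5′ UTR site: tgaatTTCACTGAAattcg
Socs36E 5′ UTR site: tacttTTCGGGGAAgcgat

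Both lists held 26 peaks in the windows of the 7 genes, which span 129292 bp, or 2.01 peaks per 10 kb in each list. The PGC peaks covered 9950 bp and the somatic peaks 7000 bp. At least 1 peak was listed for all 7 genes in PGCs and for 6 in somatic cells, the exception being hop. Over all protein-coding genes, the same window held a peak at 84.7% in the PGC list and at 77.9% in the somatic list, so a count of 7 and 6 lay near the background. Promoter peaks were present at 6 of the genes in the PGC list and at 5 in the somatic list, compared to 48.2% and 28.2% of all protein-coding genes. upd3 had no promoter peak in either list. With a distance of 250 bp in place of 500 bp, 4 genes had a PGC promoter peak and 2 a somatic one. The shares of all genes above hold for 500 bp, and none is given for 250 bp. Whether more cells of a sample are open at a site or each cell is more open cannot be told apart.

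**Figure D1:**
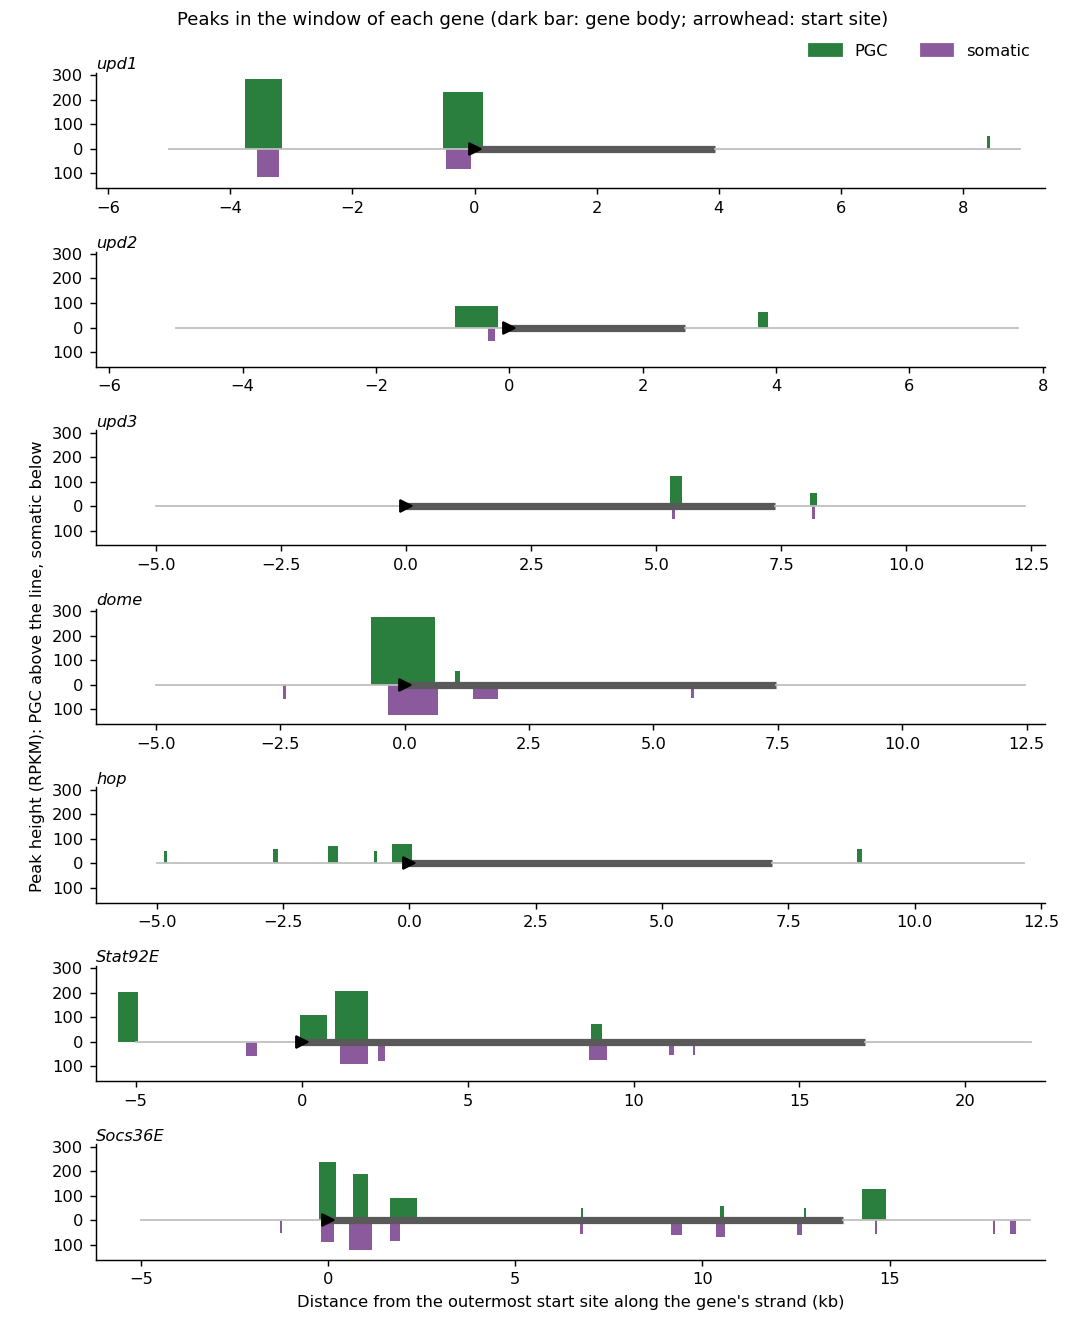
Position and height of every peak in the window of each gene, against the distance from the outermost start site along the strand of the gene (kb). PGC peaks (green) rise above the line and somatic peaks (purple) hang below it, with height in RPKM and bar width as the width of the peak (at least 60 bp drawn); at hop 6 PGC peaks face no somatic peak, whereas at Socs36E 6 of the 7 PGC peaks overlap somatic peaks.

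The 3 ligand genes lie close together on the X chromosome, in the order upd2, upd3 and upd1 along chrX:18240654-18309291, a stretch of 68638 bp. This stretch held 6 PGC peaks and 3 somatic peaks, or 0.874 and 0.437 per 10 kb. The whole X chromosome had 1.08 and 0.686 per 10 kb. The stretch ends at the outermost start site of upd1. The PGC promoter peak of upd1 was therefore counted, whereas the somatic peak that it overlaps began 60 bp beyond the end and was not. Only 1 PGC peak of the stretch, of 56.6 RPKM with its summit at -10257 bp from the start of upd3, lay outside the windows of the 3 genes, and no somatic peak did.

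upd1 (FBgn0004956, chrX:18305354-18309291, minus strand) encodes the ligand best known from embryonic patterning. Its highest peak in either list lay upstream, with the summit 3435 bp before the outermost start site in PGCs, and reached 283 RPKM in the PGC list and 114.9 RPKM in the somatic list. The promoter peak reached 232 RPKM in the PGC list against 81.9 RPKM in the somatic list. In the PGC list the promoter peak covered the outermost start site, whereas in the somatic list it ended 60 bp short of it. Another PGC peak, 50 bp wide and of 53.5 RPKM, lay downstream of the gene and had no somatic counterpart.

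upd2 (FBgn0030904, chrX:18240654-18243284, minus strand) encodes a ligand known for its role in the fat body, and had a lower promoter peak than upd1. It reached 85.8 RPKM in the PGC list and 56.6 RPKM in the somatic list, and both summits were 292 bp before the start site. The PGC peak was 650 bp wide and the somatic peak 100 bp wide. A downstream peak of 64.7 RPKM was in the PGC list alone.

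upd3 (FBgn0053542, chrX:18277233-18284596, plus strand), known as the ligand induced by infection and tissue damage, had no peak within 5000 bp upstream of its start site in either list. Its main peak was intronic, with the PGC summit 5393 bp inside the gene, and reached 123 RPKM in the PGC list and 50.7 RPKM in the somatic list. The somatic height was within 1 RPKM of the lowest value a peak could have. A downstream peak reached 53.7 RPKM in the PGC list and 51.3 RPKM in the somatic list, close to that lower limit in both. In the somatic list this downstream peak was slightly higher than the intronic one.

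dome (FBgn0043903, chrX:19676061-19683518, minus strand) encodes the receptor. A wide promoter peak dominated the gene in both lists, at 278 RPKM over 1300 bp in the PGC list and 123 RPKM over 1000 bp in the somatic list. Both summits fell on the same base of the 5′ UTR, 342 bp inside the start site. The remaining peaks were low and not shared. The PGC list held 1 of 56.4 RPKM in an exon, while the somatic list held 3, of 52.4, 57.6 and 57.0 RPKM, in an exon, an intron and the upstream neighbour Ubqn.

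hop (FBgn0004864, chrX:11360930-11368098, minus strand) encodes the kinase and was the gene with peaks in the PGC list alone. Its 6 PGC peaks were low, at 77.7, 70.9, 59.0, 58.8, 52.0 and 51.5 RPKM. The highest was 400 bp wide, covered the start site with the summit 28 bp before it, and lay between hop and Tim8. Of the others, the peaks of 70.9 and 52.0 RPKM lay within dlg1 and within 500 bp of a start site of dlg1. The peak of 59.0 RPKM was within 500 bp of a start site of Pa1. That of 51.5 RPKM lay within Tim8 and within 500 bp of a start site of Tim8, and that of 58.8 RPKM lay within dlg1. The promoter peak was thus the only one within 500 bp of the start site of hop. Its summit was also within 500 bp of a start site of Tim8. The somatic list held no peak in the window, and its nearest was 10080 bp from hop, at CG1737 (78.8 RPKM). A PGC peak without any somatic peak in the window was found at 11.1% of all protein-coding genes and at 23.5% of X-linked ones, so 1 such gene among 7 is close to the background.

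Stat92E (FBgn0016917, chr3R:20535323-20552311, minus strand) has 2 annotated start sites, 1204 bp apart. The peak over the inner start site reached 208 RPKM in the PGC list and 89.6 RPKM in the somatic list. The outer start site was covered by a PGC peak of 108 RPKM and 800 bp, but by no somatic peak, and this was the highest PGC peak at any of the 7 genes that had no somatic counterpart. The highest somatic peak without a PGC counterpart was also at Stat92E, in an intron 2385 bp inside the outer start site, at 77.3 RPKM. Deeper in the gene, an intronic peak had about equal heights, 71.4 RPKM in the PGC list and 73.1 RPKM in the somatic list. Another somatic intron peak (52.4 RPKM), an exon peak (55.3 RPKM) and a peak in the upstream neighbour DPCoAC (57.9 RPKM) had no PGC counterpart. A PGC peak of 204 RPKM lay 4940 bp from Stat92E, just inside the window, at start sites of DPCoAC and CG5180. The somatic peak that it overlapped (71.4 RPKM) was 5390 bp from the gene and thus just outside.

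Socs36E (FBgn0041184, chr2L:18138675-18152417, minus strand) is a classical target and inhibitor of the pathway, and had more peaks than any other of the 7 genes in either list. It held 7 PGC peaks and 11 somatic peaks, and 6 of each overlapped. Per 10 kb of window, Socs36E had 2.948 PGC peaks, fewer than hop with 3.495, and 4.633 somatic peaks. Among the somatic peaks without a PGC counterpart, those of 54.4 and 54.9 RPKM lay in the neighbour kel and that of 51.3 RPKM in CG17681. The promoter peak was the highest in the PGC list, at 237 RPKM against 86.3 RPKM in the somatic list. In the somatic list the order differed, since the intronic peak 841 bp inside the start site was the highest, at 189.5 RPKM in the PGC list and 119 RPKM in the somatic list. This is the peak with the Socs36E stretch printed above, and its summit was at the same base in both lists. Another intronic peak further in reached 92.0 RPKM in the PGC list and 82.5 RPKM in the somatic list. At the distal end, an exon peak reached 57.3 RPKM in the PGC list and 68.6 RPKM in the somatic list, and an intron peak 50 RPKM in the PGC list and 55.3 RPKM in the somatic list. A downstream PGC peak of 128 RPKM was at the start of the neighbouring gene kel, where the somatic list had 55.5 RPKM.

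**Figure D2:**
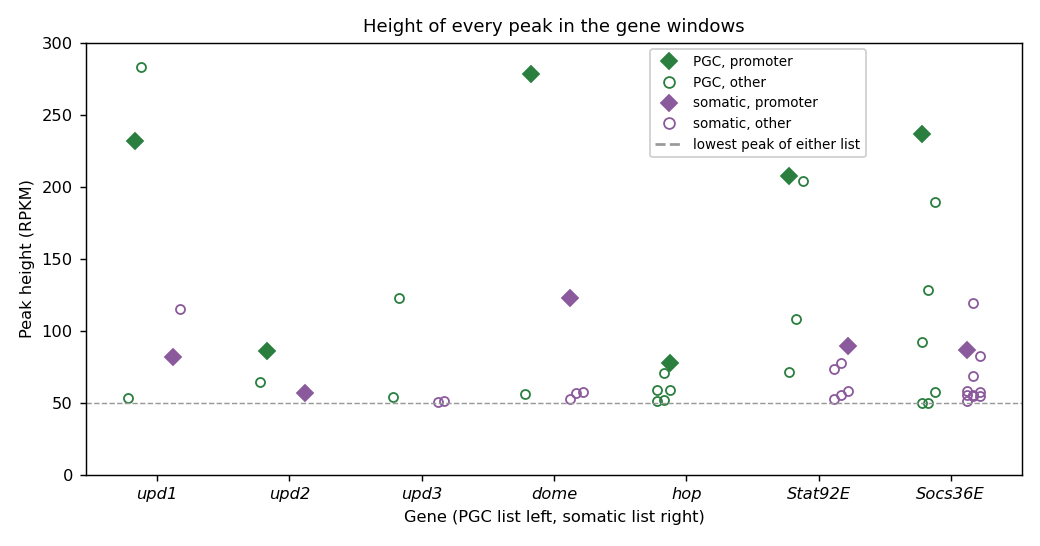
Height of each of the 26 PGC peaks (green, left at each gene) and 26 somatic peaks (purple, right) in RPKM, on an axis from 0, with promoter peaks as filled diamonds and all others as open circles. PGC promoter peaks reached 278 RPKM and somatic ones 123 RPKM, both at dome, and most open circles lie just above the dashed line at 50 RPKM, the lowest height of either list.

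Among the 26 PGC peaks, 6 were at promoters, 3 in exons, 6 in introns, 6 upstream and 5 downstream of the genes. Of the 26 somatic peaks, 5 were at promoters, 4 in exons, 9 in introns, 4 upstream and 4 downstream. Median heights were 74.6 RPKM in the PGC list and 57.6 RPKM in the somatic list, and median widths were 300 bp and 175 bp. The median width over the whole list was 150 bp in both. Against its own list, 7 of the PGC peaks and 5 of the somatic peaks were higher than at least 90% of the peaks. At the lower end, 5 PGC peaks and 8 somatic peaks were only 50 bp wide, the smallest width in the lists and below the minimum length of 60 bp set for peak calling. The others, 21 and 18 of 26, were at least 100 bp wide. Over the whole lists this held for 14695 of 19504 PGC peaks and 11651 of 17411 somatic peaks. No peak overlapped an annotated transposable element copy, but only uniquely mapping reads were used and no share over all peaks is given.

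To ask how far the same regions were open in both cell types, overlaps of at least 1 bp were counted. In the PGC list, 15 of the 26 peaks coincided with a somatic one (57.7%, exact 95% binomial interval 36.9 to 76.6%), compared to 39.3% of all PGC peaks and 36.2% of those on X. In the somatic list, 14 of the 26 peaks coincided with a PGC one (53.8%, 33.4 to 73.4%), compared to 45.9% of all somatic peaks and 59.8% of those on X. The intervals cover counting error only, since neighbouring peaks are not independent, and the shares over the whole lists lie inside both, while the share of PGC peaks on X lies just below its interval. When the overlap had to cover 50% of both peaks, the share was 30.8% in each list. The share of all peaks under that rule is not given, and the shares above hold for an overlap of 1 bp. The counts of 15 and 14 differ because of the peak pair at the edge of the Stat92E window. At these genes, peaks found in both lists were taller, and the same comparison over the whole lists is not given. In the PGC list the overlapping peaks had a median of 128 RPKM and the others 58.8 RPKM, and in the somatic list the medians were 77.5 and 56.2 RPKM. Peaks seen in 1 list were thus mostly close to the lower limit of 50 RPKM, where a small difference in height decides whether a peak is listed.

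In the 15 overlapping pairs, the PGC peak was higher in 12. The ratio of the PGC height to the somatic height had a median of 2.26 (quartiles 1.08 and 2.44) and ranged from 0.835 to 2.86. Over all 8353 overlapping pairs of the lists the median ratio was 1.21 (quartiles 0.936 and 2.15), and the PGC peak was higher in 67.3%. Ranked among all pairs, the 15 ratios ran from above 14.4% of them to above 88.2%. Both lists start at 50 RPKM, and the pairs were not matched for height. The part of height in these medians was not tested. The 6 pairs on X had a median of 2.34, against 1.65 for the 1018 pairs on X as a whole, and the 9 pairs at Stat92E and Socs36E had a median of 1.59. RPKM heights depend on how many reads of a library fall outside peaks, and the lists need not be on the same scale, so that the part of scale in these ratios was not tested. The ratio was not uniform within a gene. At Socs36E it was 2.75 at the promoter, 1.59 and 1.12 in the 2 intronic peaks near the start, and 0.904 and 0.835 in the distal intron and exon. The PGC heights of these pairs were, in the same order, 236.9, 189.5, 92, 50 and 57.3 RPKM. The distal pairs thus lay near the lower limit of the lists, and position and height were not tested apart. At Stat92E the ratio was 2.32 at the inner start site and 0.977 in the distal intron. The promoter pair had the ratio 2.83 at upd1, 2.26 at dome and 1.52 at upd2.

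**Figure D3:**
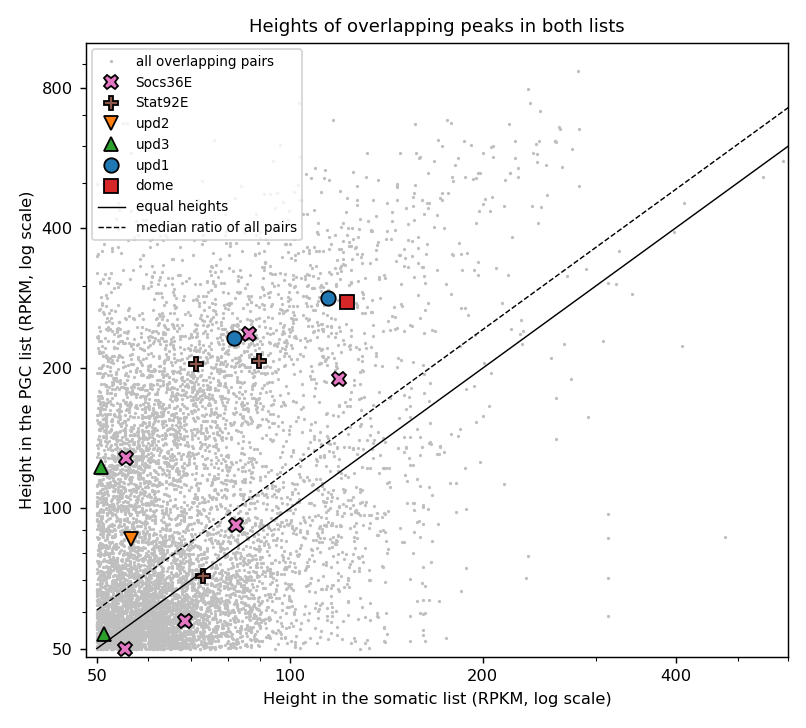
Height in the PGC list against height in the somatic list (RPKM, log scales) for the 15 overlapping pairs at the genes (coloured symbols) and all 8353 pairs (grey, 10 of them beyond the plotted range); solid line, equal heights; dashed line, the median ratio of 1.21. Of the coloured symbols 12 lie above the solid line, and the 3 below it belong to Socs36E and Stat92E.

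Summits of the paired peaks were close, with a median distance of 50 bp and 10 of 15 pairs within 50 bp, the step of the peak coordinates. The largest distance, 500 bp, was in the second intronic pair of Socs36E. The PGC peak was the wider of the pair in 11 of 15 cases.

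STAT sites were next counted in all peaks, since Stat92E is itself a member of the pathway and Socs36E one of its targets. Within 300 bp centred on the summit, TTCNNNGAA occurred at 3 of 26 PGC peaks (11.5%, exact 95% interval 2.45 to 30.2%), those at the dome and hop promoters and in the Socs36E intron, compared to 6.13% of all PGC peaks. In the somatic list it also occurred at 3 of 26 peaks (11.5%, 2.45 to 30.2%), at the promoters of dome and Socs36E and in the same intron, compared to 6.01% of all somatic peaks. The wider spacing occurred at 4 of 26 PGC peaks (15.4%, 4.36 to 34.9%), compared to 6.36% of all, and at 6 of 26 somatic peaks (23.1%, 8.97 to 43.6%), compared to 5.69% of all. Only the last interval leaves out its background, and it is 1 of several intervals, not corrected for their number. The 300 bp window also reached beyond narrow peaks. At the upd2 promoter, in the upd3 intron and 1259 bp upstream of Socs36E, the match lay outside the somatic peak itself.

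Counted over the whole width of the peaks, there were 8 STAT sites at 4 genes: 4 at Socs36E, 2 at dome, 1 at hop and 1 at Stat92E. Of these 4 were in 5′ UTRs and 4 in introns, and 5 lay in peaks of both lists. The density was 0.704 matches per kb of PGC peak at the 7 genes, compared to 0.212 per kb over all PGC peaks. In the somatic list it was 0.857 per kb, compared to 0.193 per kb over all. These densities rest on 7 PGC and 6 somatic matches and carry no interval. The wider spacing had 0.804 (PGC) and 0.714 (somatic) matches per kb, compared to 0.215 and 0.175 over all. The fully palindromic form TTCCNGGAA had 2 matches in the peaks of these genes in each list, 1 of them the outer dome 5′ UTR site shown above. Around the summit it occurred at 1 of 26 peaks (3.85%) in each list, compared to 0.292% of all PGC peaks and 0.465% of all somatic peaks. The wider spacing gave 10 matches at 5 genes, with 4 at the ligand genes, where the usual spacing had no match. A match is a description of the DNA and does not show that Stat92E binds there.

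GAGAG was found around 15 of 26 PGC peaks (57.7%, 36.9 to 76.6%) and 15 of 26 somatic peaks, compared to 43.8% of all PGC peaks and 42.2% of all somatic peaks. CAGGTA was found at 2 PGC and 3 somatic peaks (7.69% and 11.5%), compared to 9.03% and 10.3% of all. The promoter motif TATCGATA, named for the factor DREF, was at 0 of 26 peaks in either list (exact 95% interval up to 13.2%), compared to 3.58% of all PGC peaks and 1.09% of all somatic peaks. Per kb of peak at the genes, GAGAG had 6.93 (PGC) and 5.29 (somatic) matches, compared to 4.33 and 3.53 over all peaks. CAGGTA had 0.503 and 0.714, compared to 0.332 and 0.408. TATCGATA had 0 in both lists, compared to 0.159 and 0.0464.

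**Figure D4:**
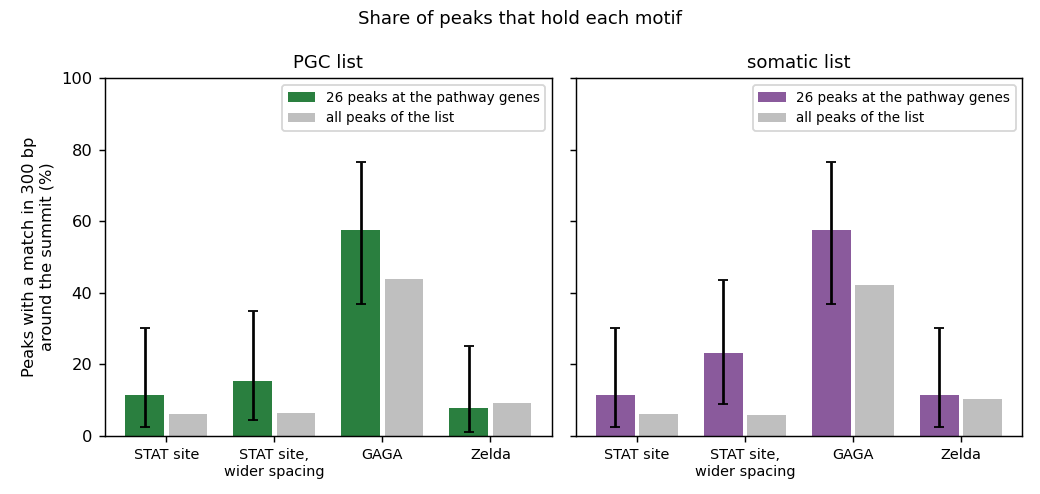
Share of peaks (%) with a match within 300 bp around the summit, for the 26 peaks at the genes (coloured, with exact 95% binomial intervals as error bars) and for all peaks of the same list (grey), in the PGC list (left) and the somatic list (right). The intervals of the coloured bars include the grey bar for every motif shown but the wider STAT spacing in the somatic list, at 23.1% against 5.69%.

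Beyond the core pathway, 7 negative regulators all had peaks in both lists, and 5 of 7 had a promoter peak in each. Over all protein-coding genes, 84.7% and 77.9% had a peak in the window, and 48.2% and 28.2% a promoter peak (PGC and somatic list). The transmembrane antagonist et, whose window overlaps that of dome, reached 86.9 RPKM in the PGC list and 56.8 RPKM in the somatic list. Both peaks were away from its promoter and at different sites, with summits 8665 bp (PGC) and 7865 bp (somatic) from its start. The phosphatase gene Ptp61F held 30 PGC peaks and 23 somatic peaks, the highest of 347 RPKM in the PGC list and 129 RPKM in the somatic list. The SOCS family gene Socs16D reached 229 RPKM in the PGC list and 98.8 RPKM in the somatic list, both at the promoter. ken, a repressor of some Stat92E targets, had a promoter peak of 185 RPKM in the PGC list and no promoter peak in the somatic list. These genes together held 72 PGC peaks and 62 somatic peaks, or 2.74 and 2.36 per 10 kb.

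Of 6 genes known as targets, 5 were listed with peaks in PGCs and 4 in somatic cells. The shares over all protein-coding genes were 84.7% and 77.9%, so these counts were not above the background. Promoter peaks were at 4 of the targets in the PGC list and 2 in the somatic list, compared to 48.2% and 28.2% of all. zfh1, which with chinmo acts downstream of the pathway in testis stem cells, had the highest peak, 452 RPKM in the PGC list and 165 RPKM in the somatic list, 250 bp before its start site. chinmo held 15 PGC peaks and 7 somatic peaks, the highest of 213 RPKM in the PGC list and 63.0 RPKM in the somatic list. These were at different sites, with summits 5968 bp (PGC) and 45118 bp (somatic) inside the start site. The antiviral response gene vir-1 had 2 PGC peaks, up to 141 RPKM, and no somatic peak. TotA, a humoral stress gene, had no peak in either list. slbo, required in migrating border cells of the ovary, had a promoter peak of 109.9 RPKM in the PGC list and 53.4 RPKM in the somatic list.

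**Figure D5:**
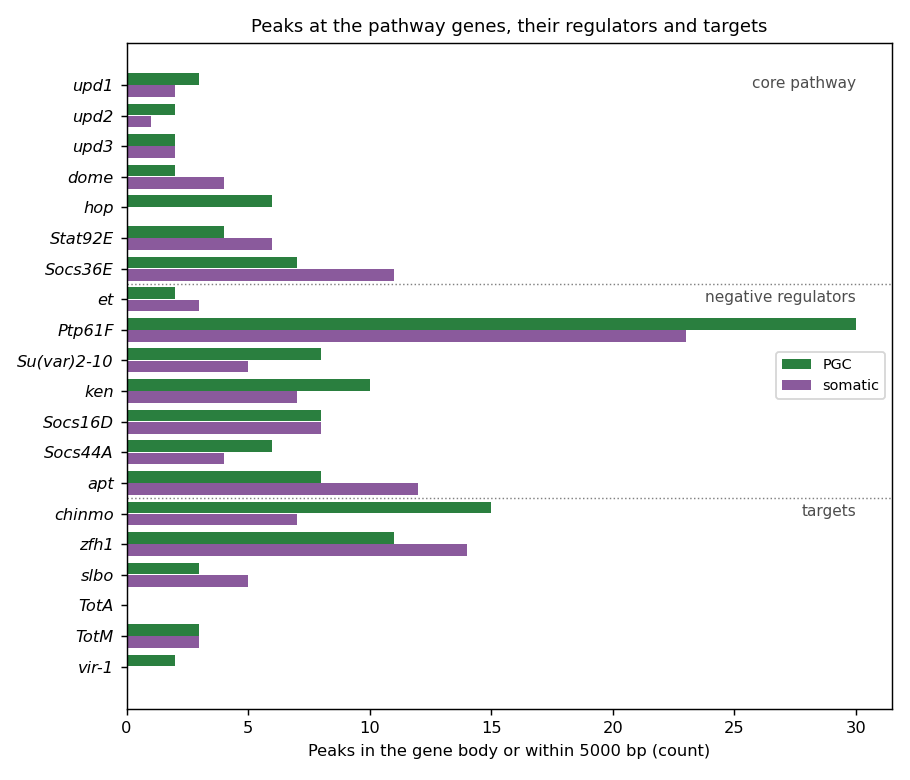
Number of peaks in the gene body or within 5000 bp for the 7 core genes, 7 negative regulators and 6 targets, PGC (green) above somatic (purple) at each gene. Counts run from 0 in both lists at TotA to 30 PGC and 23 somatic peaks at Ptp61F, and hop and vir-1 have PGC peaks alone.

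For comparison, the BMP and Notch pathways were counted in the same way. The 12 BMP genes held 2.40 PGC peaks and 2.43 somatic peaks per 10 kb and had promoter peaks at 10 and 9 genes. The 12 Notch genes held 1.92 and 1.94 per 10 kb and had promoter peaks at 11 and 10 genes. Promoter peaks were at 48.2% and 28.2% of all protein-coding genes. Peaks shared with the other cell type made up 44.2% (BMP) and 43.2% (Notch) of their PGC peaks and 48.7% (BMP) and 47.2% (Notch) of their somatic peaks, values that lie inside the intervals given above for the JAK-STAT genes.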

How the data were processed

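The deposited peak lists come from ATAC-seq of PGCs and somatic cells, with 2 samples each. The authors used cutadapt 4.2 for adapters, Bowtie2 2.5.1 for alignment to release 6 (dm6) and SAMtools 1.17 for duplicate removal. Coverage in RPKM was made in deepTools 3.5.4, blacklisted regions left out, and both replicates were averaged. Peaks were then called on the average (MACS2 bdgpeakcall) above a cutoff chosen by hand. File names state that only uniquely mapping reads were used. A shift of read ends for the transposase is not given in the sources used here. The score column that the authors deposited is 10 times the summit height in RPKM, truncated, and was divided by 10. RPKM scales each library by its mapped reads, so a library with more reads outside peaks has lower peaks and fewer above a fixed cutoff. Peak widths are multiples of 50 bp, and both lists hold peaks 50 bp wide although the stated minimum length is 60 bp. The lists give neither depth nor spread between replicates, so no test was run.

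Peaks were assigned to a gene when they touched its body extended by 5000 bp, from the Ensembl release 115 annotation. A promoter peak had its summit within 500 bp of a start site of the gene. A peak outside this distance was placed by its summit in an exon, an intron, or up- or downstream. Overlap meant 1 bp or more. The sequence of a Stat92E stretch is not reported here. Motifs were searched on both strands in 300 bp around the summit. Python 3.11.15, numpy 2.4.6, scipy 1.17.1 and matplotlib 3.10.9 were used. Counting functions were tested on simulated data. The genes named were the 7 core genes, the listed regulators, targets, BMP and Notch genes and marker genes, and neighbours under a peak. Delta and nanos were matched through the RefSeq synonyms Dl and nos. The core genes and lists were chosen with earlier results of these data known. Alternatives changed the window, the minimum height or width, the number of peaks per list, the overlap, the promoter distance and the motif search.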

Additional observations from a re-analysis of the deposited data

How the results depend on the processing

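Of 82 values recomputed under other settings, 73 stayed within 1.5 times the main count or inside its interval and 9 did not. Counting the gene body alone gave 14 PGC and 16 somatic peaks. With peaks of at least 60 RPKM, 16 PGC and 10 somatic peaks were left, and 80% of those somatic peaks overlapped a PGC peak. Under a reciprocal overlap of 50%, the overlapping share was 30.8% in each list. With a promoter distance of 250 bp, 2 genes had a somatic promoter peak. Shares over all peaks or all protein-coding genes under these settings are not given, so these values have no background. In a setting chosen after seeing the data, PGC heights were divided by 1.21, the median ratio of all pairs, which left 16 PGC peaks above 50 RPKM, 2 of them at hop (highest 64.1 RPKM). No paired analysis was possible because the replicates of each cell type were averaged by the authors before the peaks were called. For the same reason no replicate could be left out.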
